A study of Mus musculus with 15 samples.

Results

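Imprinted genes were followed across the liver pools of the study, 35 genes chosen by name: 20 known to be expressed from the paternal allele, 14 known to be expressed from the maternal allele, and Gnas, whose transcripts differ in the allele they use. A gene was read from the probe sets that carry its symbol and no other, and of these from the brightest by mean over the 15 arrays. By that rule 33 of the 35 were measured, among 18193 genes in all: 19 paternally expressed, 13 maternally expressed, and Gnas. H19 was left out because its probe set is annotated jointly with the microRNA gene Mir675, and Zrsr1 because no probe set in the annotation used here carries its symbol alone.

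The arrays came from male mouse liver in 5 groups of 3 pools, and each pool is read from its title as 3 livers. The control pools, 1 to 3, were of control males drawn from both generations of offspring. The IUGR F1 pools, 4 to 6, were of adult males whose caloric supply had been restricted by 50% in utero. The ON F1 pools, 7 to 9, were of adult males overfed during lactation. The IUGR F2 pools, 10 to 12, and the ON F2 pools, 13 to 15, were of adult male offspring of IUGR males and of ON males, and carry no restriction or overfeeding of their own in the labels. The study asked whether expression in the livers of exposed males is also present in their offspring through the paternal line. Strain, age in weeks, litters and the pairing of fathers with offspring pools are not stated. The control group cannot separate the generations. A p-value sets a group difference against the spread between these pools of 3 livers, and not between animals or litters.

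Imprinted genes are expressed mostly from a single parental allele. For most but not all of them, DNA methylation laid down in the egg or the sperm marks an imprinting control region and is kept after fertilisation. Many act on growth: paternally expressed genes such as Igf2 tend to promote it, and maternally expressed ones such as Igf2r, Grb10 and Cdkn1c tend to restrain it. In liver a network of growth-related imprinted genes is active before birth and is silenced after it, while a smaller number, among them the amino acid transporter gene Slc38a4, stays on in the adult. An expression array does not tell the alleles apart, so that "paternally expressed" and "maternally expressed" below are known properties of the genes, some of them limited to certain tissues, and not measurements.

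Promoters of 3 members are shown because these genes had the widest ranges over the 15 pools among members with a mean of 5 or more. Each run is the 250 bases before the annotated start, 5′ to 3′ on the strand of the gene, from RefSeq on GRCm38.p6, with CpG dinucleotides, the sites of DNA methylation, in capitals. Meg3 lies on the plus strand, and its run is chr12:109540746-109540995. Kcnq1ot1 lies on the minus strand at chr7:143296548-143296797, and Peg3 on the minus strand at chr7:6730420-6730669.
Meg3: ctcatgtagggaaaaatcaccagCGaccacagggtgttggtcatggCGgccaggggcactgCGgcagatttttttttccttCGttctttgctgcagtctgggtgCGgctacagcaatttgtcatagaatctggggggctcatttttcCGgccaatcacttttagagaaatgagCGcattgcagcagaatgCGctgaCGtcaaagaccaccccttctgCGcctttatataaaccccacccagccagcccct
Kcnq1ot1: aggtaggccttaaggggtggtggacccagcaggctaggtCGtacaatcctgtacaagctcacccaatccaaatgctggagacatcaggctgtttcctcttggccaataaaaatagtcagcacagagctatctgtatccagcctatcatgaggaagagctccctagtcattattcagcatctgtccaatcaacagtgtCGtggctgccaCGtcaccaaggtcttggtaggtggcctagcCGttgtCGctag
Peg3: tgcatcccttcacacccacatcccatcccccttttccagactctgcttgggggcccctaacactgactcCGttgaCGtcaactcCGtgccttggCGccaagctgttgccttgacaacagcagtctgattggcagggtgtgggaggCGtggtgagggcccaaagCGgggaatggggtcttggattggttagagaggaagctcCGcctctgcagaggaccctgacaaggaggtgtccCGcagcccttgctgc
The printed runs hold 10 CpG in Meg3, 5 in Kcnq1ot1 and 8 in Peg3. RefSeq windows of 300 bases, from 250 before to 50 after a start, were found for 29 of the 33 measured members, and the window richest in CpG had a median of 17 CpG over these members and of 8 over all 27025 genes with a window. The median was 14 for the 16 paternally expressed members with a window and 21.5 for the 12 maternally expressed ones. The letters TGACGTCA, read on either strand, occurred in 1.79% of all 32851 windows and in windows of 2 measured members, Meg3 at 57 bases and Peg3 at 178 bases before the start. CCAAT, either strand, occurred in 37.408% of windows and in those of 14 members, and all 3 printed runs hold it. TATAAA, either strand, occurred in 13.616% of windows and in those of 9 members, with Meg3 alone among the printed runs, where its matches overlap at 25 bases on the gene's strand and 29 bases on the other strand. The motifs were chosen after the sequences were seen, and a match is a description of letters.

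The pools had the marker profile of liver: the mean log2 level of 9 hepatocyte markers lay between 12.68 and 13.10 in every pool. Pool 13, an ON F2 pool, stood apart for pancreatic acinar markers, at a mean of 9.26 over 7 genes against 5.46 to 5.73 in the other pools. Pool 5, an IUGR F1 pool, had the highest mean of 10 skeletal muscle markers, 5.02 against 4.08 to 4.33, although each of the 10 had a mean below 5 over the series. The clock output gene Dbp, whose level swings with the hour of sampling, ranged from 5.30 to 10.71 and was above 9 in pools 2, 5, 6, 13 and 14. Mean levels of 10 Kupffer cell markers lay between 6.60 and 6.68 in the IUGR F1 pools, below the 6.88 to 7.42 of control, and between 7.09 and 7.58 in the ON F2 pools. In whole liver, fewer cells of a type and less RNA per cell cannot be told apart.

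Levels are given throughout as log2 RMA values, the scale on which probe intensities were summarised per probe set. A mean under 5 over the 15 arrays is called dim. Of the 33 measured members 17 were dim (51.5%), against 7830 of all 18193 genes (43.0%). Dimness was unevenly spread between the classes, with 12 of 19 paternally expressed and 5 of 13 maternally expressed members below 5. The median pooled SD of a member within groups was 0.13, and so was that of all genes.

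Of the paternally expressed genes, 7 had a mean of 5 or more. Slc38a4, a system A amino acid transporter of hepatocytes, had a mean level of 11.49. Mcts2, a retrogene of the MCT-1 family, had 7.54, and Impact, an inhibitor of the stress kinase GCN2, had 7.10. Peg3, a zinc finger protein gene, had 6.39, Kcnq1ot1, a long antisense RNA of the Kcnq1 cluster, 6.04, Mest, a gene of the hydrolase fold family, 5.32, and Ndn, which encodes the MAGE family protein necdin, 5.12. Dim members of this class were Plagl1 (4.91), Sgce (4.91), Igf2 (4.88), Snrpn (4.76), Dlk1 (4.03), Nap1l5 (4.00), Magel2 (3.95), Sfmbt2 (3.92), Peg10 (3.89), Nnat (3.54), Mkrn3 (3.21) and Peg12 (2.77). Probe sets differ in affinity, so these values order brightness on the array and not amounts of transcript.

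Of the maternally expressed genes, 8 had a mean of 5 or more. The tetraspanin gene Cd81 had a mean level of 11.68, the transporter gene Slc22a18 had 9.41, and Commd1, which acts in copper export and protein sorting, had 8.28. The ubiquitin ligase gene Ube3a had 7.81, Igf2r, the receptor that takes up IGF2 for degradation and sorts lysosomal enzymes, had 7.60, and Meg3, a long non-coding RNA, had 6.89. Grb10, an adaptor that damps insulin and IGF1 receptor signalling, had 5.98, and Phlda2, a pleckstrin homology domain gene that restrains placental growth, had 5.16. Ascl2 (4.83), Cdkn1c (4.44), Rian (4.00), Asb4 (3.91) and Zim1 (3.36) were dim. Gnas, which encodes the stimulatory G protein alpha subunit downstream of the glucagon receptor, had 11.82.

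**Figure D1:**
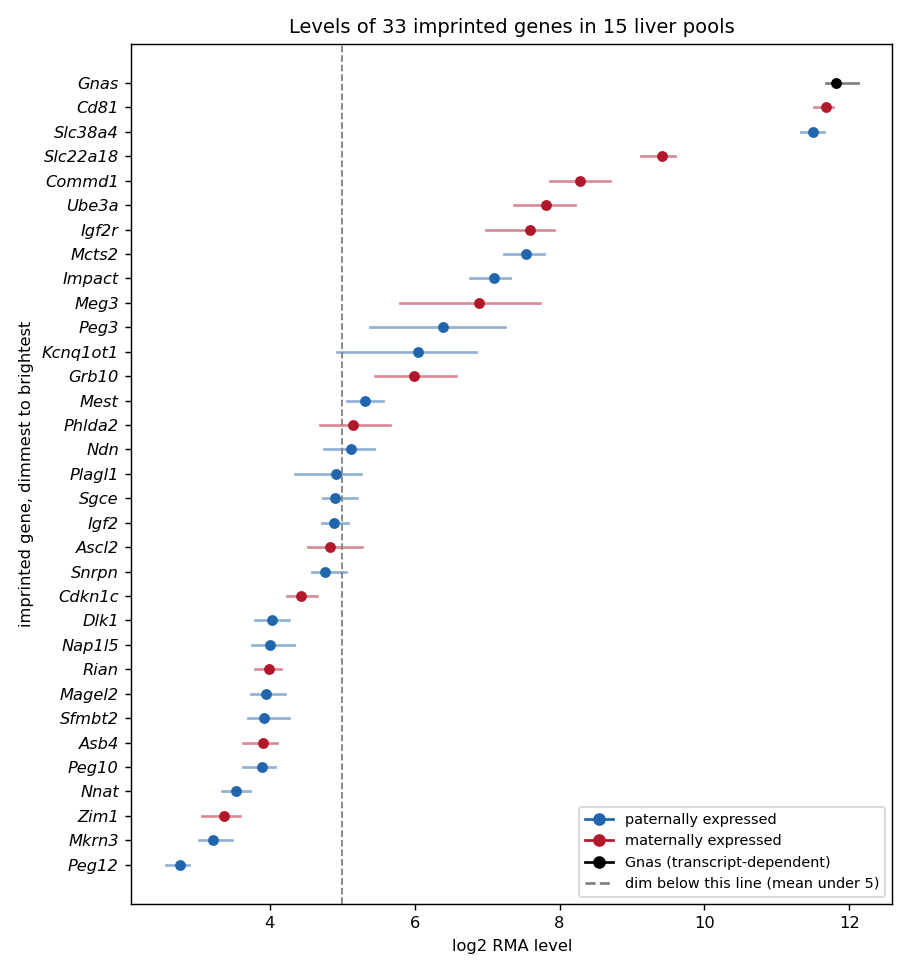
Mean log2 RMA level (points) and range over 15 liver pools (lines) of the 33 measured imprinted genes, by parental class, with the dim limit of 5 as a dashed line. The widest lines belong to Meg3, Kcnq1ot1 and Peg3, with ranges of 1.93, 1.92 and 1.87, and 17 genes have their mean below the dashed line.

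A single member passed the test in any pairwise comparison. In the comparison of ON F2 with ON F1, 1 of 33 imprinted genes was called at an adjusted p under 0.05 by limma, Impact, against 1.43% of all genes. No member was called in IUGR F1 against control (0% of all genes), ON F1 against control (0.022%), IUGR F2 against control (0%), ON F2 against control (0%), IUGR F2 against IUGR F1 (0.011%), IUGR F1 against ON F1 (0.011%) or IUGR F2 against ON F2 (0.0055%). None was called for the difference between lineages in the change across generations (0.011%), nor in the F test over the 5 groups (0.187%). At an unadjusted p under 0.05, limma gave 44 differences of members over the 8 pairwise comparisons and the interaction, 15 of them in dim genes. All 44 are named below, and all but that of Impact in ON F2 against ON F1 missed the adjusted threshold.

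Impact is translated into a protein that competes with GCN2 for its activator GCN1, and so restrains the response of translation to amino acid shortage. Its level was 7.15, 7.29 and 7.32 in the control pools, 6.96, 6.90 and 6.99 in IUGR F1 and 6.81, 7.03 and 6.76 in ON F1. The second generation stood at 7.25, 7.12 and 7.23 in IUGR F2 and 7.25, 7.16 and 7.28 in ON F2. All 6 first-generation pools were below all 9 pools of the other groups, and the control and second-generation pools overlapped. How many of all genes split in this way was not counted. Impact rose from ON F1 to ON F2 by 0.36 ± 0.08 (SE, 3 pools a group), 1.28-fold, with an adjusted p of 0.0470 (limma). Against control, ON F1 was at -0.38 ± 0.08 (adjusted p 0.106) and IUGR F1 at -0.30 ± 0.08 (adjusted p 0.420). IUGR F2 against IUGR F1 was 0.25 ± 0.08, with an adjusted p of 0.299. The F test over the 5 groups gave Impact an adjusted p of 0.0826. These comparisons share pools, in particular the control and first-generation ones, and are not independent of each other.

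Among members, Impact and Gnas lay wholly below control in both first-generation groups, as did 1.7% of all genes, and Mest lay wholly above control in both, as did 3.79%.

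The call for Impact rested on a narrow margin. It was lost on leaving out any of 13 of the 15 pools, when the adjusted p reached at most 0.133, and was kept without control pool 1 (0.0459) or ON F1 pool 8 (0.0353). The difference over these fits lay between 0.31 and 0.44. Dbp was 5.40, 5.34 and 6.23 in the ON F1 pools and 9.84, 10.71 and 6.54 in the ON F2 pools. With Dbp as a covariate the difference was 0.38 ± 0.10, with an adjusted p of 0.245. The call was also lost with the compared groups alone (adjusted p 0.200, limma). It was lost too when every probe set was fitted on its own (adjusted p 0.0625 over probe sets, limma).

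The other probe sets of Impact did not show the step. They were dim, with means of 4.97 and 4.13, and gave ON F2 minus ON F1 differences of -0.25 ± 0.11 and -0.13 ± 0.12. Averaging all 3 sets left -0.01 ± 0.07.

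**Figure D2:**
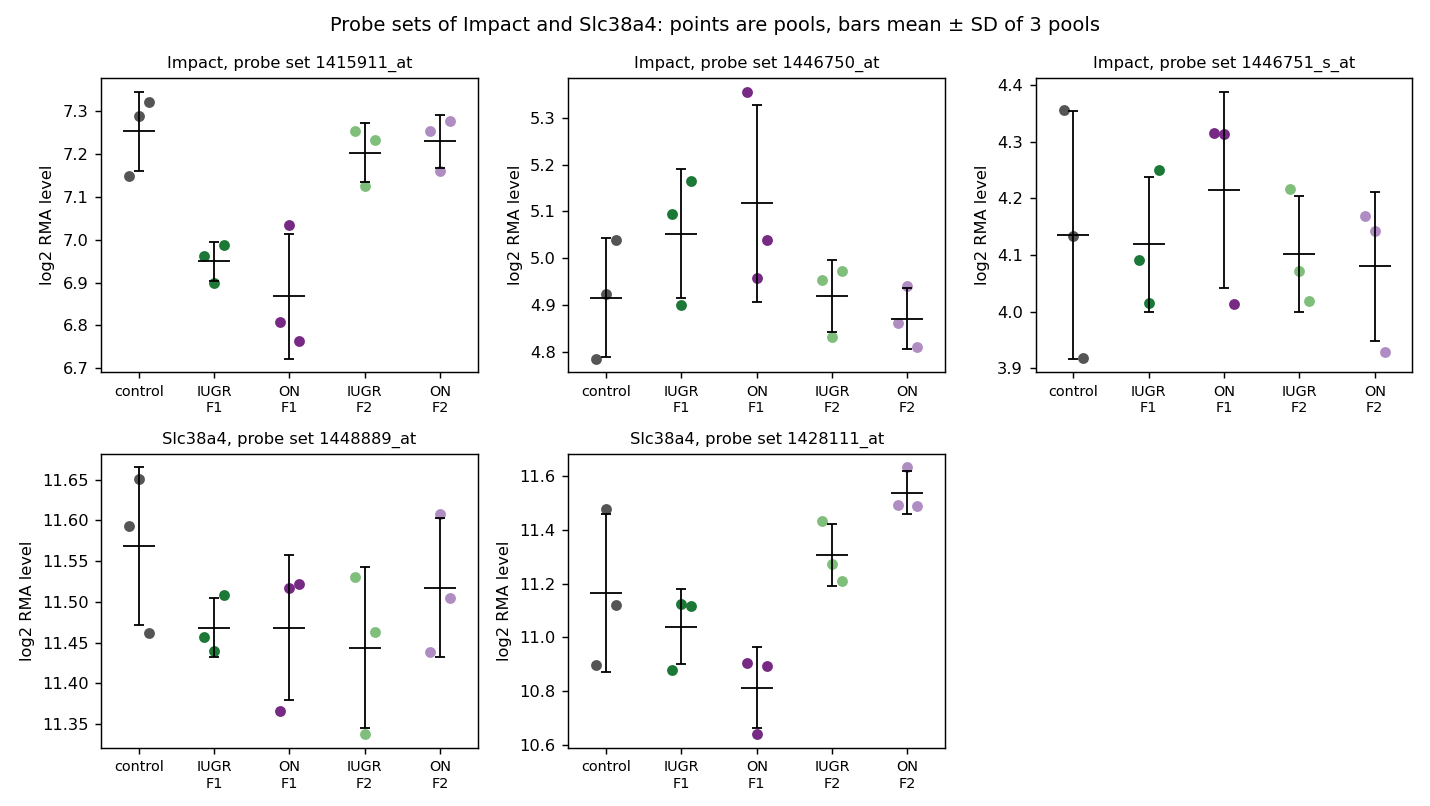
Log2 RMA levels by pool of the 3 probe sets of Impact (upper row) and the 2 of Slc38a4 (lower row), with points for pools and bars for the mean ± SD of 3 pools per group; each panel has its own axis. The 6 first-generation points of the first Impact set lie below the others, and the second Slc38a4 set is highest in ON F2, at 11.49 to 11.63.

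Slc38a4 carries small neutral amino acids into hepatocytes. Its brightest probe set read 11.59, 11.65 and 11.46 in control, with IUGR F1 at 11.46, 11.44 and 11.51, ON F1 at 11.37, 11.52 and 11.52, IUGR F2 at 11.53, 11.34 and 11.46, and ON F2 at 11.44, 11.61 and 11.50. The groups overlapped throughout, and ON F2 minus ON F1 was 0.05 ± 0.08. A second set, with a mean of 11.17, read 10.90, 11.48 and 11.12 in control, with IUGR F1 at 10.88, 11.12 and 11.12, ON F1 at 10.91, 10.64 and 10.89, IUGR F2 at 11.43, 11.27 and 11.21, and ON F2 at 11.49, 11.63 and 11.49. There, all ON F2 pools were above all ON F1 pools. When every one of the 34945 single-symbol probe sets was fitted on its own, this set rose in ON F2 against ON F1 by 0.73 ± 0.13, with an adjusted p of 0.0294 over probe sets (limma). The call held without each of 11 of the 15 pools in turn and was lost without ON F1 pool 7 or 8 or ON F2 pool 13 or 14, with differences between 0.64 and 0.77. It was lost with Dbp as a covariate, at 0.53 ± 0.14 and an adjusted p of 0.287, and with the compared groups alone (adjusted p 0.114). The fit over single probe sets was chosen after the data were seen, and called 248 probe sets in the comparison.

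Peg3 encodes a zinc finger protein that binds DNA and acts in cell death pathways. Its level was 6.84, 6.38 and 6.25 in control, with IUGR F1 at 6.56, 6.29 and 5.72, ON F1 at 6.28, 6.09 and 7.11, IUGR F2 at 6.26, 5.65 and 5.39, and ON F2 at 7.09, 6.76 and 7.25. The ON F2 pools lay wholly above the IUGR F2 pools, while the other groups spread over much of the same range and every pool of IUGR F2 was at or below 6.26. IUGR F2 minus ON F2 was -1.27 ± 0.28, a 2.41-fold lower level in IUGR F2, with an adjusted p of 0.168 (limma). All 4 other probe sets of Peg3 had the same sign, and the bright one among them, with a mean of 6.36, gave -1.09 ± 0.30; averaging all sets, 3 of them dim, left -0.58. Against control IUGR F2 was at -0.73 ± 0.28 (adjusted p 0.683). The change across generations differed between the lineages by -0.96 ± 0.40 (adjusted p 0.593), and by -1.45 with Dbp as a covariate. Markers of some non-parenchymal cells were also lower in IUGR F2 than in ON F2. This held for 10 of 10 Kupffer, 10 of 10 sinusoidal endothelial and 9 of 10 stellate cell and fibroblast markers, and for 9703 of all 18193 genes. The list means overlapped between the pools of IUGR F2 and ON F2. They were 6.58 to 7.21 and 7.09 to 7.58 for Kupffer, and 6.37 to 6.70 and 6.51 to 6.89 for endothelial markers. The stellate list averaged 6.93 to 7.29 in the IUGR F2 pools and 7.18 to 7.36 in the ON F2 pools. Bile duct markers went the other way, at a mean of 5.27 in IUGR F2 and 5.19 in ON F2. The part of these cells in the Peg3 values was not tested. Zim1, its maternally expressed neighbour, was dim and at -0.15 ± 0.12 in IUGR F2 against ON F2.

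Kcnq1ot1 is transcribed antisense to Kcnq1 from the paternal allele, where it silences neighbouring genes. Its level was 6.21, 6.13 and 6.22 in control, with IUGR F1 at 6.39, 5.20 and 5.95, ON F1 at 5.85, 4.93 and 6.06, IUGR F2 at 6.84, 6.36 and 6.48, and ON F2 at 5.95, 6.19 and 5.85. Pool 5 of IUGR F1 and pool 8 of ON F1 were the lowest of the series, and the control pools lay close together. IUGR F2 minus IUGR F1 was 0.71 ± 0.28 (adjusted p 0.373), and 0.39 without pool 5. The other 5 probe sets had the same sign. Of its neighbours in the cluster, Cdkn1c was dim and at -0.15, Slc22a18 was at -0.04, Cd81 was at 0.03 and Phlda2 was at 0.52 ± 0.21 (adjusted p 0.374) in the same comparison.

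Mcts2 lies within an intron of H13 and is almost identical to its parent gene Mcts1, so that its probe set may also read Mcts1. It read 7.73, 7.54 and 7.60 in control, with IUGR F1 at 7.77, 7.54 and 7.62, ON F1 at 7.78, 7.63 and 7.44, IUGR F2 at 7.48, 7.47 and 7.55, and ON F2 at 7.32, 7.24 and 7.40. The ON F2 pools were the lowest 3 of the 15. ON F2 was at -0.30 ± 0.09 both against control (adjusted p 0.176) and against ON F1 (adjusted p 0.107), the latter -0.17 with Dbp as a covariate.

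Mest, a marker of fetal mesoderm, read 5.24, 5.28 and 5.11 in control, with IUGR F1 at 5.38, 5.44 and 5.43, ON F1 at 5.32, 5.57 and 5.42, IUGR F2 at 5.23, 5.07 and 5.33, and ON F2 at 5.14, 5.35 and 5.52. Both first-generation groups lay wholly above control. ON F1 minus control was 0.23 ± 0.10 (adjusted p 0.339), and 0.08 with the ratio of 3′ to 5′ actin probe sets, a measure of RNA integrity, as a covariate.

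Ndn read 5.13, 5.22 and 4.75 in control, with IUGR F1 at 5.15, 5.23 and 5.44, ON F1 at 5.26, 5.37 and 5.32, IUGR F2 at 4.97, 4.91 and 4.94, and ON F2 at 4.97, 4.86 and 5.24. The first-generation pools were above those of the second generation in each lineage. The differences were -0.33 ± 0.12 for IUGR F2 against IUGR F1 (adjusted p 0.346), -0.29 ± 0.12 for ON F2 against ON F1 (adjusted p 0.205) and 0.29 ± 0.12 for ON F1 against control (adjusted p 0.320). The last was 0.14 without control pool 3. The other 7 probe sets of Ndn were dim, and 4 of them shared the sign in IUGR F2 against IUGR F1, 3 in ON F2 against ON F1 and 7 in ON F1 against control. Averaged over all sets these differences were -0.079, -0.069 and 0.10.

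**Figure D3:**
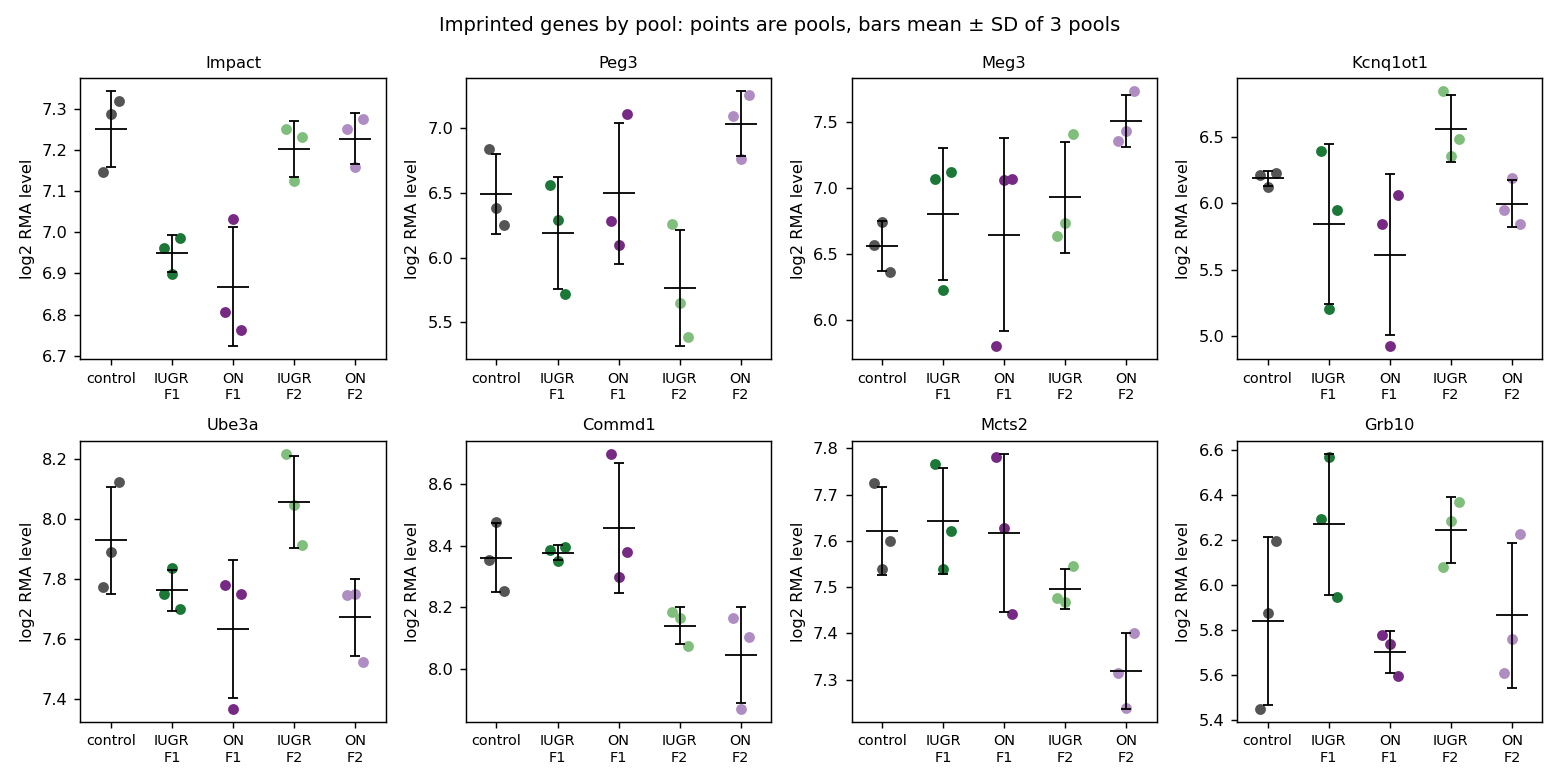
Log2 RMA levels by pool for 8 imprinted genes with a mean of 5 or more, with points for pools and bars for the mean ± SD of 3 pools per group; each panel has its own axis. The ON F2 pools lie above control for Meg3 and below it for Mcts2 and Commd1, and IUGR F2 and ON F2 do not overlap for Peg3.

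The dim paternally expressed genes gave small differences. Igf2, the fetal growth factor, was dim in every group, at 4.77, 4.99 and 4.84 in control, with IUGR F1 at 4.86, 4.94 and 4.82, ON F1 at 4.88, 5.09 and 4.95, IUGR F2 at 4.79, 4.72 and 4.85, and ON F2 at 4.85, 4.89 and 4.98, with no difference at an unadjusted p under 0.05. Nnat, a membrane proteolipid gene, differed by 0.25 ± 0.09 in IUGR F1 against control and by -0.20 ± 0.09 in IUGR F2 against IUGR F1. Snrpn, which encodes the splicing protein SmN, differed by 0.23 ± 0.09 and -0.21 ± 0.09 in the same comparisons. Nap1l5, a retrogene of the nucleosome assembly family, differed by 0.28 ± 0.09 in ON F1 against control and by -0.25 ± 0.09 in IUGR F1 against ON F1. The polycomb group gene Sfmbt2 was at -0.28 ± 0.11 in IUGR F2 against IUGR F1 (-0.18 without pool 4), with the opposite sign in its other probe set and an average of -0.096 over both, and the MAGE family gene Magel2 at 0.22 ± 0.09 in ON F2 against ON F1. Adjusted p-values of these differences lay between 0.191 and 0.706 (limma). The zinc finger gene Plagl1, Sgce, which encodes epsilon-sarcoglycan, the retrotransposon-derived Peg10, Mkrn3 and Peg12 gave none.

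Dlk1, a Delta-like membrane protein gene of fetal liver, was read by dim probe sets of opposite direction. The set with the higher mean, 4.03, gave 0.25 ± 0.08 in IUGR F1 against control, 0.23 ± 0.08 in ON F2 against control, 0.21 ± 0.08 in IUGR F1 against ON F1 and 0.19 ± 0.08 in ON F2 against ON F1, and the interaction was -0.33 ± 0.12 (adjusted p from 0.213 to 0.709). The other set, at a mean of 3.72, read 4.01, 3.97 and 3.99 in ON F1 and 3.63, 3.57 and 3.53 in ON F2. It fell by 0.41 ± 0.08 from ON F1 to ON F2, with an adjusted p of 0.0418 over probe sets (limma), a call kept without each of 4 of the 15 pools in turn and lost without each of the others. It was also lost with Dbp as a covariate (adjusted p 0.296), with the compared groups alone (0.189) and with centred arrays (0.0536). Averaged over both sets the difference was -0.11. No direction can be given for Dlk1 itself.

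Igf2r read 7.73, 7.64 and 7.83 in control, with IUGR F1 at 7.65, 7.92 and 7.82, ON F1 at 6.99, 7.15 and 7.68, IUGR F2 at 7.68, 7.82 and 7.47, and ON F2 at 7.74, 7.69 and 7.13. ON F1 pools 7 and 8 and ON F2 pool 15 were low, and ON F1 pool 9 overlapped control. ON F1 was at -0.46 ± 0.18 against control (adjusted p 0.278), and IUGR F1 minus ON F1 was 0.52 ± 0.18 (adjusted p 0.700). A second probe set of similar brightness, with a mean of 7.48, gave -0.10 ± 0.08 and -0.06 ± 0.08 for these comparisons, and averaging both sets left -0.28 and 0.23.

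Grb10 read 5.45, 5.88 and 6.19 in control, with IUGR F1 at 6.29, 6.57 and 5.95, ON F1 at 5.78, 5.74 and 5.60, IUGR F2 at 6.08, 6.29 and 6.37, and ON F2 at 5.61, 5.76 and 6.23. All IUGR F1 and IUGR F2 pools were above all ON F1 pools. IUGR F1 minus ON F1 was 0.57 ± 0.19 (adjusted p 0.701), and IUGR F1 minus control was 0.43 ± 0.19 (adjusted p 0.568), or 0.23 without control pool 1. The other Grb10 sets were dim, with means of 4.41 and 3.97, and their differences from control in IUGR F1 were -0.01 and -0.02. Averaging the sets left 0.18 against ON F1 and 0.13 against control.

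Phlda2 read 5.62, 4.91 and 5.65 in control, with IUGR F1 at 4.70, 4.97 and 4.86, ON F1 at 4.76, 5.50 and 4.87, IUGR F2 at 5.26, 5.45 and 5.39, and ON F2 at 5.33, 4.82 and 5.22. The IUGR F1 pools were below all IUGR F2 pools and overlapped control through control pool 2. IUGR F1 was at -0.55 ± 0.21 against control (adjusted p 0.490).

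Meg3 is the long non-coding RNA of the Dlk1/Dio3 cluster, transcribed from the maternal allele together with Rian. It read 6.57, 6.74 and 6.36 in control, with IUGR F1 at 7.07, 6.23 and 7.12, ON F1 at 5.80, 7.06 and 7.07, IUGR F2 at 6.64, 6.73 and 7.41, and ON F2 at 7.35, 7.43 and 7.73. The ON F2 pools were above all control and all ON F1 pools, and only IUGR F2 pool 12 reached their range. ON F2 minus control was 0.95 ± 0.31, 1.93-fold, with an adjusted p of 0.190 (limma). All 10 other probe sets of Meg3 had the same sign, and the next brightest sets gave 1.10 ± 0.44 and 1.22 ± 0.47. ON F2 minus ON F1 was 0.86 ± 0.31 (adjusted p 0.155), with 9 of the 10 other sets of the same sign, and 0.44 without ON F1 pool 7, the lowest of the series. Averaging all sets left 0.52 against control and 0.44 against ON F1. Without pool 13, which carried the acinar transcripts, the difference from control was 1.03. With the actin ratio as a covariate it was 0.60. Of 10 Kupffer cell markers 8 were higher in ON F2 than in control, though the list means overlapped, at 7.09 to 7.58 and 6.88 to 7.42. The stellate list averaged 7.28 in ON F2 and 7.38 in control, and the endothelial list 6.70 and 6.68. The part of these cells in the Meg3 values was not tested. The printed Meg3 promoter, like that of Peg3, holds TGACGTCA, and that of Kcnq1ot1 does not. Rian, a host of small nucleolar RNAs in the same cluster, was dim and at 0.07 in ON F2 against control.

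Commd1 read 8.35, 8.48 and 8.25 in control, with IUGR F1 at 8.39, 8.35 and 8.39, ON F1 at 8.70, 8.30 and 8.38, IUGR F2 at 8.18, 8.17 and 8.07, and ON F2 at 8.16, 7.87 and 8.10. At this probe set all 6 second-generation pools were below all 9 pools of the other groups. The share of all genes with such a split was not counted. ON F2 minus ON F1 was -0.41 ± 0.10, the smallest adjusted p of a maternally expressed member at 0.0624 (limma). That difference passed the threshold when only genes with a mean of 5 or more were tested (0.0477) and with a trended, robust prior (0.0493), and was -0.39 ± 0.13 (adjusted p 0.351) with Dbp as a covariate. ON F2 was at -0.31 ± 0.10 against control (adjusted p 0.195), and IUGR F2 at -0.24 ± 0.10 against IUGR F1 (adjusted p 0.413). A second set, with a mean of 7.85, gave 0.07 ± 0.14 for ON F2 minus ON F1. There IUGR F2 read 7.92, 7.78 and 7.69 and ON F2 read 7.80, 7.88 and 8.03, overlapping the other groups. Averaging both sets left -0.17 for ON F2 against ON F1, -0.19 for ON F2 against control and -0.099 for IUGR F2 against IUGR F1. Commd1 is the host gene of Zrsr1, which was not measured.

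Ube3a read 7.77, 7.89 and 8.12 in control, with IUGR F1 at 7.75, 7.83 and 7.70, ON F1 at 7.78, 7.37 and 7.75, IUGR F2 at 8.22, 8.04 and 7.91, and ON F2 at 7.74, 7.75 and 7.52. The IUGR F2 pools were above all IUGR F1 and all ON F2 pools. IUGR F2 minus IUGR F1 was 0.30 ± 0.12 (adjusted p 0.393), with the same sign in all 5 other sets, and IUGR F2 minus ON F2 was 0.39 ± 0.12 (adjusted p 0.330), with the same sign in 4 of 5 and 0.19 averaged over sets. ON F1 was at -0.30 ± 0.12 against control (adjusted p 0.308), at -0.16 without ON F1 pool 8, and at -0.13 with the actin ratio as a covariate.

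Cd81 and Slc22a18, bright members of the Kcnq1 cluster, gave no difference at an unadjusted p under 0.05. Cd81 read 11.68, 11.68 and 11.71 in control, with IUGR F1 at 11.63, 11.68 and 11.65, ON F1 at 11.52, 11.76 and 11.65, IUGR F2 at 11.60, 11.78 and 11.67, and ON F2 at 11.74, 11.70 and 11.70, a range of 0.26 over the series. Slc22a18 read 9.56, 9.40 and 9.56 in control, with IUGR F1 at 9.43, 9.39 and 9.54, ON F1 at 9.12, 9.60 and 9.32, IUGR F2 at 9.43, 9.30 and 9.51, and ON F2 at 9.42, 9.27 and 9.37. Of the dim maternally expressed genes, Asb4, an ankyrin repeat gene, differed by 0.26 ± 0.09 in ON F1 (adjusted p 0.251) and by 0.22 ± 0.09 in IUGR F2 (adjusted p 0.689), both against control. Its other probe set had the opposite sign in both, and the averages were 0.11 and 0.036. The cell cycle inhibitor gene Cdkn1c, the trophoblast factor gene Ascl2, Rian and Zim1 gave none.

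Gnas read 12.12, 11.88 and 11.90 in control, with IUGR F1 at 11.74, 11.87 and 11.76, ON F1 at 11.72, 11.72 and 11.78, IUGR F2 at 11.79, 11.93 and 11.68, and ON F2 at 11.79, 11.80 and 11.85. Control pool 1 was the highest of the series. ON F1 minus control was -0.23 ± 0.08 (adjusted p 0.260), and -0.15 without control pool 1. The other 4 probe sets were dim, and 2 of them had the same sign, with an average of -0.088 over all sets.

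**Figure D4:**
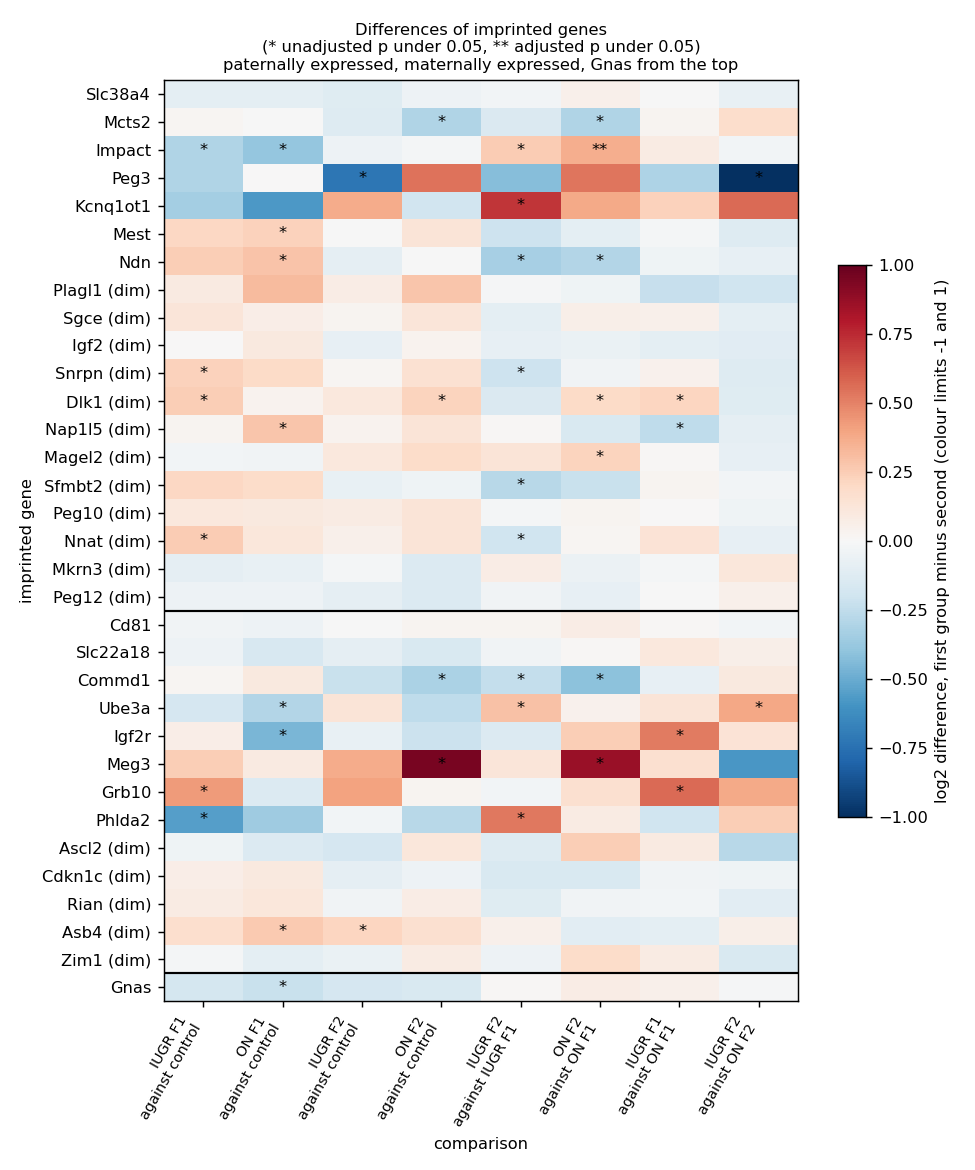
Log2 differences of the 33 imprinted genes (rows, paternally expressed, maternally expressed and Gnas from the top, brightest first) in the 8 pairwise comparisons (columns), with red for higher and blue for lower in the first group named. The double asterisk, an adjusted p under 0.05 by limma, stands on Impact in ON F2 against ON F1 alone, and single asterisks mark unadjusted p under 0.05.

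Counts and medians over the classes were set beside those of all genes. In IUGR F1 against control, 6 members had an unadjusted p under 0.05, or 18.2%, against 8.43% of all genes, and 6 did not overlap between the groups, against 14.5%. The median difference was 0.02 for paternally expressed and 0.02 for maternally expressed members, and 0.01 for all genes. In ON F1 against control, 8 members had such a p (24.2%, against 14% of all genes), and 7 did not overlap (background 16.4%). Medians were 0.07 for paternally expressed members, -0.10 for maternally expressed ones and 0.02 for all genes. Among members with a mean of 5 or more they were -0.0046 for 7 paternally expressed and -0.15 for 8 maternally expressed genes. Of the 17 dim members 12 were higher than control in each first-generation group, as were 5022 and 5123 of all 7830 dim genes.

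In the second generation, IUGR F2 against control had 2 members at such a p (6.06%, background 7.05%) and 4 that did not overlap (background 13.4%). The median was -0.03 over members and -0.01 over all genes. ON F2 against control had 4 (12.1%, background 15.1%) and 8 that did not overlap (background 21%). The median in ON F2 was 0.12 for paternally expressed members, 0.02 for maternally expressed ones and 0.00 for all genes. Over the 7 paternally expressed members with a mean of 5 or more it was -0.02, with 2 higher and 5 lower. Over the 8 maternally expressed members of that brightness it was -0.18. Of the dim members 13 of 17 were higher in ON F2 than in control, against 5111 of 7830 dim genes. The 4 comparisons with control share its 3 pools.

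Between the generations, IUGR F2 against IUGR F1 had 9 members at an unadjusted p under 0.05 (27.3%, against 11.4% of all genes). In that comparison 10 of the 33 members did not overlap (background 19.2%), and medians were -0.04 over members and -0.03 over all genes. In ON F2 against ON F1 there were 7 (21.2%, background 19.3%) and 7 that did not overlap (background 21.4%), with medians of 0.03 and -0.03. Between the exposures, IUGR F1 against ON F1 had 4 (12.1%, background 6.35%) and 3 that did not overlap (background 9.94%). IUGR F2 against ON F2 had 2 (6.06%, background 10.1%) and 7 that did not overlap (background 17.1%). There, 15 of 19 paternally expressed members were lower in IUGR F2, against 6 of 13 maternally expressed ones, 9703 of all 18193 genes and 5297 of the 7830 dim ones. The interaction gave 2 (background 7.71%), Dlk1 and Peg3, and the F test over the 5 groups gave 10 (30.3%, background 18%): Impact, Commd1, Peg3, Mcts2, Ube3a, Ndn, Dlk1, Grb10, Nap1l5 and Kcnq1ot1.

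Further imprinted genes, 39 of 49 listed, were measured beside the members. ON F2 against ON F1 called 1 of them, Blcap, the host gene of Nnat, which was 8.89, 8.86 and 8.81 in ON F1 and 8.24, 8.17 and 8.54 in ON F2 without overlap. Blcap thus fell by 0.53 ± 0.12, with an adjusted p of 0.0470 (limma). The call was lost without each of 12 of the 15 pools in turn, and with Dbp as a covariate the difference was -0.27 ± 0.09 (adjusted p 0.352). The Blcap call was also lost with the compared groups alone (adjusted p 0.155) and with centred arrays (0.0646). Mirg, a microRNA host of the Dlk1/Dio3 cluster downstream of Meg3 and Rian, lay at 0.53 ± 0.15 in the same comparison (adjusted p 0.0793), with a mean of 4.97. Casd1 was at 0.22 and Ddc at -0.37, with adjusted p-values of 0.185 and 0.180.

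No gene of this list was called by limma in the other comparisons. Against control at an unadjusted p under 0.05, IUGR F1 had 4 genes of it (10.3%, against 8.43% of all genes), ON F1 had 9 (23.1%, background 14%), IUGR F2 had 3 (7.69%, background 7.05%) and ON F2 had 13 (33.3%, background 15.1%). It had 2 in IUGR F2 against IUGR F1 (5.13%, background 11.4%), 8 in ON F2 against ON F1 (20.5%, background 19.3%), 4 in IUGR F1 against ON F1 (10.3%, background 6.35%) and 9 in IUGR F2 against ON F2 (23.1%, background 10.1%). Kcnq1, which shares its locus with Kcnq1ot1, was 0.40 ± 0.12 above control in IUGR F1, 0.43 ± 0.12 in ON F1 and 0.38 ± 0.12 in ON F2, with adjusted p-values of 0.449, 0.171 and 0.187. Copg2, the antisense neighbour of Mest, was at 0.29 ± 0.11 in IUGR F1, 0.34 ± 0.11 in ON F1 and 0.33 ± 0.11 in IUGR F2 (adjusted p 0.504, 0.214 and 0.656). Klf14, dim at 4.25, was at 0.32 ± 0.08 in ON F2 (adjusted p 0.128). Pon2, an antioxidant lactonase of the Peg10 cluster, was at -0.27 ± 0.07 in IUGR F1 (adjusted p 0.420).

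Of 16 genes listed as imprint maintenance factors, DNA methyltransferases among them, 15 were measured, and limma called none in any comparison. At an unadjusted p under 0.05 there were 0 to 2 in a pairwise comparison. They were Dnmt3b and Zfp445 in ON F2 against ON F1 (13.3%, below the 19.3% of all genes). In IUGR F2 against ON F2 they were Dnmt3b and Arid4a (13.3%, above the 10.1% of all genes). The interaction had Arid4a, Dnmt3b and Ctcf at such a p, where the background was 7.71%. Dnmt3b, a DNA methyltransferase, was 6.84, 6.76 and 7.04 in ON F1 and 6.01, 5.71 and 6.51 in ON F2, a difference of -0.80 ± 0.21 with an adjusted p of 0.0669. Zfp445, a zinc finger protein that protects imprints, was at 0.38 ± 0.15 there (adjusted p 0.186). Against control Dnmt3b was at 0.54 ± 0.21 in ON F1 (adjusted p 0.285, limma) and at 0.59 ± 0.21 in IUGR F2 (adjusted p 0.656). Dbp was higher in the ON F2 pools than in the ON F1 pools, and its part in the Dnmt3b values was not tested. Arid4a, a chromatin protein linked to the Snrpn imprint, was at 0.56 ± 0.13 in IUGR F2 against IUGR F1 (adjusted p 0.207). Levels over the series were 6.58 for the maintenance methyltransferase gene Dnmt1 and 9.58 for the imprint corepressor gene Trim28, while Zfp57, which guards imprints in the embryo, was dim at 4.56.

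Of 11 partners of the IGF and insulin receptors 10 were measured. Igfbp5, which encodes an IGF binding protein, was 6.52, 6.38 and 7.21 in ON F1 and 5.13, 5.52 and 5.77 in ON F2 and fell by 1.23 ± 0.27 (adjusted p 0.0394, limma), the single call of this list. That call was lost without each of 8 of the 15 pools in turn and with Dbp as a covariate (-1.43 ± 0.33, adjusted p 0.174). It was also lost with the compared groups alone (adjusted p 0.136) and with a trended, robust prior (0.0601). Igfbp2, a hepatocyte IGF binding protein gene, was at 0.70 ± 0.20 in the same comparison (adjusted p 0.0804). Igfbp5 was also wholly lower in IUGR F2 than in IUGR F1, at -0.79 ± 0.27 (adjusted p 0.313, limma). Against control, IUGR F2 was at -0.96 ± 0.27 for Igfbp5 (adjusted p 0.596), also without overlap. The ON F2 pools too were wholly below control for Igfbp5, at means of 5.47 and 6.48 (adjusted p 0.134). The insulin receptor gene Insr was at 0.26 ± 0.09 in IUGR F2 against IUGR F1 (adjusted p 0.349).

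Of 10 fetal liver genes and their postnatal repressors 9 were measured, and limma called none in any comparison. At an unadjusted p under 0.05 there were 0 to 3 in a pairwise comparison, where all genes gave 6.35% to 19.3%; the 3 were in ON F2 against ON F1 (33.3%, background 19.3%). Igf2bp1, which encodes a fetal protein that binds Igf2 mRNA, was 5.20, 5.17 and 4.94 in control. The IUGR F1 pools gave 5.43, 5.55 and 5.74 and the ON F1 pools 5.39, 5.70 and 5.56. The differences from control were 0.47 ± 0.11 (adjusted p 0.383) and 0.44 ± 0.11 (adjusted p 0.142). These are values of its brightest probe set, and its 3 other sets are not given here. Zbtb20, a repressor of fetal genes in adult hepatocytes, was at 0.26 ± 0.11 in ON F2 against ON F1 (adjusted p 0.189) and at 0.26 ± 0.11 in IUGR F2 against IUGR F1 (adjusted p 0.391).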

How the data were processed

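Liver RNA of 15 pools was hybridised to Affymetrix GeneChip mouse genome expression arrays. The deposited values are log2 expression per probe set made by the authors with RMA, which corrects background, quantile-normalises and summarises probes, per the submitters' processing notes; its version is not stated. RMA makes arrays comparable but narrows differences of dim probe sets. Of 45101 probe sets, 64 controls, 932 with several symbols and 9160 without one in the annotation used here were left out. The remaining 34945 gave 18193 genes, each read at its brightest probe set, and 34741 matched RefSeq by Entrez identifier, with 0 symbols changed.

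Group means were fitted with limma 3.58.1 (R 4.3.3) over all 15 arrays, with 3 pools a group, 10 residual and 4.69 prior degrees of freedom. Tests were two-sided, Benjamini-Hochberg adjusted over all genes, with a threshold of 0.05; ± is a standard error. Medians over genes were 5.36 to 5.49 per array, and precision is limited by the number of arrays, with a median standard error of 0.104 for IUGR F1 against control. Pairwise array correlations were 0.983 to 0.995, with 0 identical pairs. The fit was tested on simulated data.

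The 35 members, the further lists and the tests were chosen with earlier results of these data known. Every measured member is named with its level, and a difference is given where it passed the threshold or had an unadjusted p under 0.05. Values by pool are given for members with a mean of 5 or more and such a p, for the brightest 5, and for a few growth genes. Of the further lists, genes called are given, or at most 3 per comparison with the smallest p. The others named there were chosen after their values were seen. Genes of these lists are given at their brightest probe set, and their other sets are not described. Alternatives were averaging the probe sets of a gene, a mean of 5 or more, a trended and robust prior, arrays centred on their median, the compared groups alone, Dbp or the actin ratio as a covariate, each pool left out, and, added after seeing the data, every probe set fitted on its own.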

Additional observations from a re-analysis of the deposited data

Results flagged for a closer look

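Impact differed between generations of the overfed lineage at its brightest probe set: ON F2 minus ON F1 was 0.36 on the log2 scale. It was the single call by limma among the 33 measured members in the tests of one group against another. The call was lost without each of 13 of the 15 pools in turn, with Dbp as a covariate and with the compared groups alone. Averaging the 3 probe sets left -0.01. IUGR F2 minus IUGR F1 had the same direction, at 0.25 (adjusted p 0.299, limma).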

How the results depend on the processing

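No paired analysis was possible because the labels do not state which pools are related. The pool numbers, 1 to 15, run through the series and do not tell whether offspring pools descend from first-generation pools.

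Of 291 member differences recomputed under other settings 281 kept their direction and side of the threshold, 2 lost the threshold without changing sign, 2 passed it and 6 reversed. The reversals came from averaging a gene's probe sets: Impact in ON F2 against ON F1 (-0.0070), and Dlk1 in IUGR F1 against control (-0.0074), ON F2 against control (-0.017), ON F2 against ON F1 (-0.11), IUGR F1 against ON F1 (-0.099) and the interaction (0.063). Leaving out a pool kept 647 of 660, and the other 13, all of Impact in ON F2 against ON F1, lost the threshold. Of the 44 differences all but that of Impact were short of the threshold from the start. Leaving out a pool outside the compared groups cannot change a difference. The counts kept are therefore mostly of differences that stayed short of the threshold, and are no measure of how firm a call is.

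Imprinted genes called in ON F2 against ON F1 (1 in the report) were 2 with a mean of 5 or more and 2 with the trended prior. With every probe set fitted they were 2, Dlk1 and Slc38a4, and Impact was no longer among them. There were 0 with the compared groups alone, 0 with Dbp, and 0 to 1 without a pool. Centred arrays gave 1 in the F test (0 in the report). Without a pool all other comparisons gave 0.

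Genes called, over all genes, moved more. Averaging probe sets gave 1 in IUGR F1 against control (0 in the report), 1 in ON F1 against control (4), 0 in IUGR F2 against ON F2 (1) and 1 in the interaction (2). A mean of 5 or more gave 1 in ON F1 against control, 5 in IUGR F2 against IUGR F1 (2) and 6 in IUGR F2 against ON F2. The trended prior gave 9 in ON F1 against control and 2 in IUGR F2 against ON F2. Centring gave 4 in IUGR F2 against ON F2 and 52 in the F test (34). The compared groups alone gave 0 in ON F1 against control, 1 in IUGR F2 against IUGR F1, 7 in ON F2 against ON F1 (261), 0 in IUGR F1 against ON F1 (2) and 0 in IUGR F2 against ON F2. Dbp gave 1 in ON F1 against control, 3 in ON F2 against ON F1, 1 in IUGR F1 against ON F1, 4 in IUGR F2 against ON F2, 1 in the interaction and 8 in the F test. The actin ratio gave 0 in ON F1 against control, 0 in IUGR F2 against IUGR F1 and 0 in IUGR F1 against ON F1. The cause was not tested. Without a pool the counts were 0 to 0 in IUGR F1, 0 to 21 in ON F1, 0 to 1 in IUGR F2 and 0 to 1 in ON F2, each against control. They were 0 to 4 in IUGR F2 against IUGR F1, 19 (without pool 7) to 313 (without pool 9) in ON F2 against ON F1, 0 to 3 in IUGR F1 against ON F1, 0 to 7 in IUGR F2 against ON F2, 2 to 4 in the interaction and 7 to 40 in the F test. The compared groups alone were not run for the interaction and F test, and a mean of 5 or more gives no value for the 17 dim members, whose signal near background limits what their differences can show.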
